A study of Bos taurus with 6 samples.

Results

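The small leucine-rich proteoglycans of intramuscular connective tissue were examined in longissimus thoracis (LT) muscle of Korean cattle (Hanwoo) steers that differed in the number of fine marbling particles (NFMP). The family was taken as a list of 9 genes given by name, with no measured value in the rule: decorin (DCN), biglycan (BGN), asporin (ASPN), lumican (LUM), fibromodulin (FMOD), PRELP, keratocan (KERA), osteomodulin (OMD) and osteoglycin (OGN). All 9 were found among the 23015 rows of the count table, and 8 of them were among the 15039 rows with enough counts to be tested. OMD was the member below that limit.

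Marbling particles are the flecks of intramuscular fat seen on a cut surface of the muscle, and fine ones are the small flecks. The high-NFMP group held 3 steers (3-8, 10-8 and 10-9) between 32.5 and 34.5 months of age, and the low-NFMP group held 3 steers (3-1, 3-3 and 10-16) between 33.7 and 37.8 months. All were castrated males of the same breed, were kept conventionally on commercial feed with no treatment given in the labels, and each gave 1 library, so the steer was the replicate. The oldest steer was in the low-NFMP group, and the groups were defined by a trait of the muscle and not by an intervention. The study also reported a higher marbling score and a larger rib eye area in the sequenced high-NFMP steers.

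Small leucine-rich proteoglycans are secreted proteins with a curved core of leucine-rich repeats, and many carry chains of chondroitin, dermatan or keratan sulfate. They bind to collagen fibrils and regulate how fibrils assemble and how thick they grow. Several also bind growth factors such as transforming growth factor beta (TGF-beta) or cell surface receptors. In skeletal muscle they lie in the connective tissue sheaths around fibres and bundles, among which intramuscular fat is deposited, and fibroblasts are a main source.

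Total counts per library lay between 16283873 and 17192750. The libraries were made from the 3′ end of each mRNA, so read number is not expected to rise with transcript length. How fully the 3′ end of each gene was annotated and mapped was not examined, so orders of genes are orders of counts. Levels are given as counts per 1000000 (CPM) on library sizes normalized with TMM factors. All 9 muscle fibre markers, among them ACTA1, CKM and TTN, were detected in every library and summed to between 100600 and 125700 CPM. The 9 proteoglycan genes together held between 0.0375% and 0.0566% of the counts. The tissue contains many cell types, and in such bulk RNA fewer cells of a type and less RNA per cell cannot be told apart.

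DCN had by far the most counts of the members. None of the 8 tested members passed the threshold between high and low NFMP. It required a fold change above 2 together with an unadjusted p below 0.05. By edgeR, DESeq2 and limma alike, 0 of 8 passed that threshold and 0 of 8 had an unadjusted p below 0.05. Over all tested genes, 3.90% passed the threshold and 11.5% had an unadjusted p below 0.05, while 0.685% had an adjusted p below 0.05. Of the 8 members, 6 had a positive log2 fold change (high over low NFMP), against 51.9% of all tested genes. The median log2 fold change of the 8 was 0.40, against 0.02 over all tested genes. Both rested on steer 10-8, without which 4 of the 8 were positive and the median was -0.037. OGN was the one tested member whose groups did not overlap, being lower in every high-NFMP steer, and 17.1% of all tested genes had groups that did not overlap in either direction. With 3 steers in each group an exact permutation test of a single gene cannot reach a p below 0.1.

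**Figure D1:**
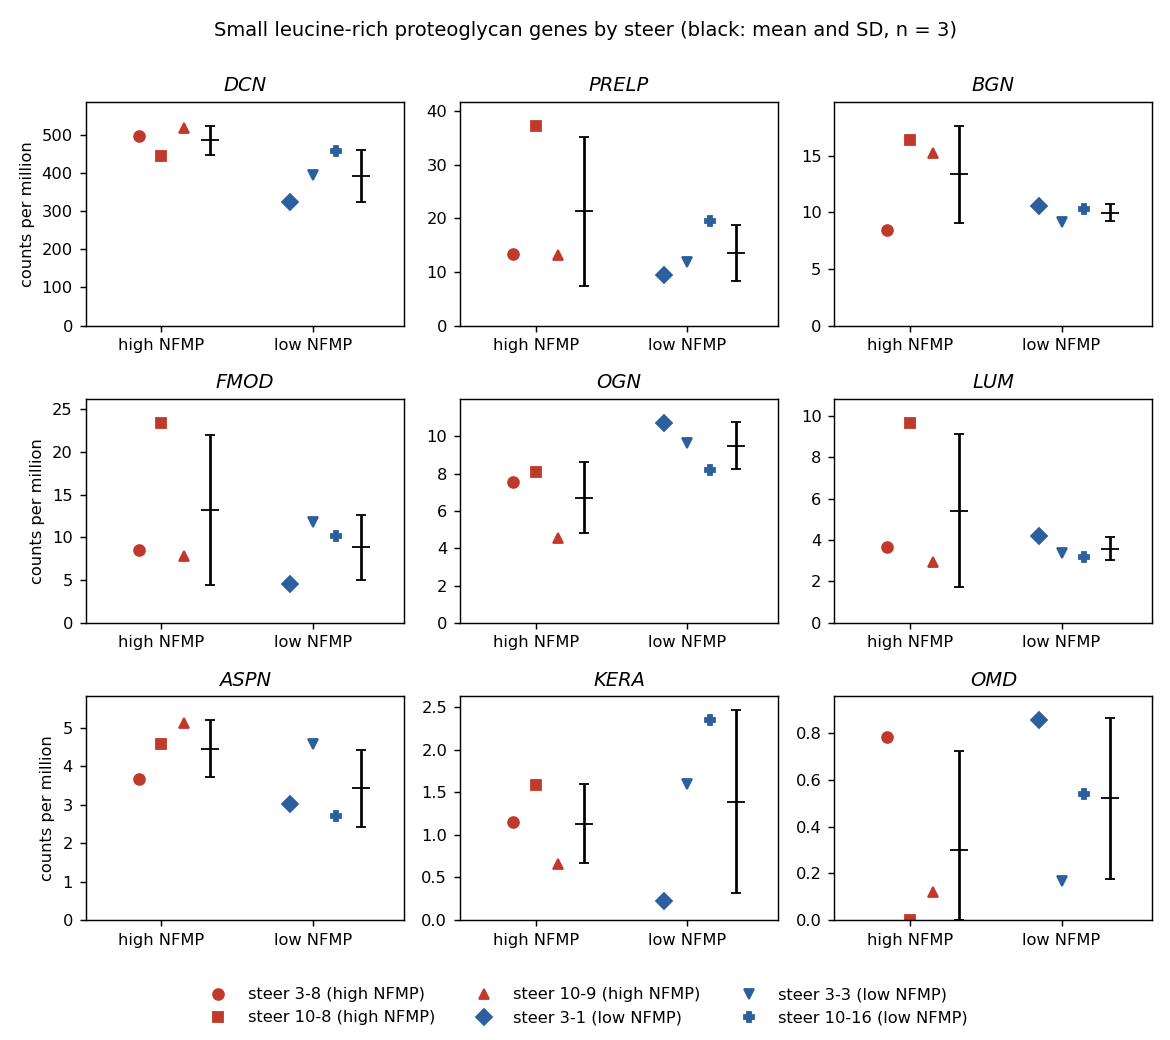
Level of each of the 9 genes in CPM (vertical axis, starting at 0, with its own range in each panel) in the 3 high-NFMP steers (red) and the 3 low-NFMP steers (blue), with the group mean and SD in black. The lower SD bar of OMD in high NFMP is cut at 0. Only the groups of OGN do not overlap, and steer 10-8 stands above the others in LUM, FMOD and PRELP.

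The mean level over the 6 steers ran from DCN at 439.9 ± 71.1 CPM (SD, n = 6) to PRELP at 17.4 ± 10.3 CPM, a ratio of 25.2, and DCN was above PRELP in 6 of 6 steers. BGN at 11.7 CPM, FMOD at 11.0 CPM and OGN at 8.11 CPM followed. LUM at 4.50 CPM and ASPN at 3.95 CPM came next, and KERA at 1.26 CPM and OMD at 0.411 CPM were lowest. The order of neighbours was not firm in the middle of this range. PRELP was above BGN in 4 of 6 steers, BGN above FMOD in 3 of 6 and LUM above ASPN in 3 of 6. FMOD was above OGN in 5 of 6 steers, OGN above LUM in 5 of 6 and KERA above OMD in 5 of 6. ASPN was above KERA in 6 of 6 steers.

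The first class of the family holds DCN, BGN and ASPN, which are close relatives. Decorin binds collagen fibrils and limits their lateral growth, and it binds TGF-beta. DCN measured 497.4, 444.9 and 518.1 CPM in high-NFMP steers 3-8, 10-8 and 10-9, and 323.4, 396.3 and 459.3 CPM in low-NFMP steers 3-1, 3-3 and 10-16. The groups overlapped because steer 10-16 lay above steer 10-8, while steer 3-1 was lowest of all. The means were 486.8 ± 37.7 CPM in high and 393.0 ± 68.0 CPM in low NFMP (SD, n = 3 each). The log2 fold change was 0.31 (SE 0.19, 95% interval -0.10 to 0.72), with an adjusted p of 0.573 by edgeR. In fold terms that interval ran from 0.931 to 1.65, so a 2-fold difference lay outside it. The lowest value belonged to the oldest steer, and with age as a term the log2 fold change of DCN was 0.19 (adjusted p = 0.866 by edgeR).

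Biglycan resembles decorin in its core, binds collagen and growth factors, and when released can act on toll-like receptors. BGN measured 8.45, 16.4 and 15.2 CPM in the high-NFMP steers and 10.5, 9.14 and 10.3 CPM in the low-NFMP steers. Steers 10-8 and 10-9 stood above all low-NFMP steers, but steer 3-8 was the lowest of the 6. The means were 13.36 ± 4.296 and 9.99 ± 0.741 CPM (SD, n = 3 each), and the log2 fold change was 0.42 (SE 0.26, 95% interval -0.14 to 0.98, adjusted p = 0.572 by edgeR). Without steer 3-8 it was 0.66, and it was 0.21 in a model that also held the leading number of each steer's label.

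Asporin carries a run of aspartate residues, lacks the chain attachment site of its relatives and binds collagen and TGF-beta. ASPN measured 3.68, 4.56 and 5.13 CPM in the high-NFMP steers and 3.02, 4.57 and 2.70 CPM in the low-NFMP steers. Steer 3-3 of the low-NFMP group lay among the high-NFMP values, so the groups overlapped. The log2 fold change was 0.38 (SE 0.33, 95% interval -0.32 to 1.07, adjusted p = 0.69 by edgeR). With each steer left out it ran from 0.266 without steer 10-16 to 0.635 without steer 3-3.

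The second class holds LUM, FMOD, PRELP, KERA and OMD, several of which can carry keratan sulfate. Lumican and fibromodulin bind overlapping sites on fibrillar collagen. LUM measured 3.68, 9.66 and 2.93 CPM in the high-NFMP steers and 4.22, 3.36 and 3.19 CPM in the low-NFMP steers. A single steer, 10-8, was high, at 2.87 times the median of the other 5, and the other high-NFMP steers lay on either side of the low-NFMP median. The log2 fold change was 0.59 (SE 0.41, 95% interval -0.29 to 1.47, adjusted p = 0.627 by edgeR). It was -0.091 without steer 10-8 and 0.91 without steer 10-9.

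FMOD measured 8.51, 23.4 and 7.82 CPM in the high-NFMP steers and 4.50, 11.8 and 10.1 CPM in the low-NFMP steers. Steer 10-8 was again highest, at 2.75 times the median of the other 5, and steer 3-1 was lowest. The means were 13.2 ± 8.78 and 8.81 ± 3.84 CPM (SD, n = 3 each), and the log2 fold change was 0.58 (SE 0.49, 95% interval -0.53 to 1.69, adjusted p = 0.689 by edgeR). It was -0.082 without steer 10-8, and 0.16 with age as a term.

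PRELP is a basic, heparin-binding member that links collagen to basement membranes. It measured 13.4, 37.3 and 13.3 CPM in the high-NFMP steers and 9.40, 11.8 and 19.5 CPM in the low-NFMP steers. Steer 10-8 was highest, at 2.82 times the median of the other 5, and low-NFMP steer 10-16 was above the other two high-NFMP steers. The log2 fold change of PRELP was the largest of the 8 at 0.65 (SE 0.45, 95% interval -0.38 to 1.68, adjusted p = 0.634 by edgeR). It was 0.008 without steer 10-8. Without steer 10-16 it was 1.04 and passed the threshold of the unadjusted p and fold change, with an adjusted p of 0.471 by edgeR.

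Keratocan is best known from the cornea and osteomodulin from bone and teeth, and both were scarce here. KERA had 19, 24 and 11 counts in the high-NFMP steers and 4, 29 and 39 counts in the low-NFMP steers. The low-NFMP group held both the lowest and the highest steer, and at such counts the counting error is large. Its log2 fold change was -0.30 (SE 0.65, 95% interval -1.70 to 1.10, adjusted p = 0.892 by edgeR), and it was 0.32 without steer 10-16, -1.18 with age as a term and -0.02 with limma. OMD had 13, 0 and 2 counts in the high-NFMP steers and 15, 3 and 9 counts in the low-NFMP steers. The count of 0 in steer 10-8 allows up to 3 counts, or 0.198 CPM, and covers counting error only. The groups of OMD overlapped.

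OGN stands for the third class. Osteoglycin, also called mimecan, is a smaller relative that takes part in collagen fibril formation. OGN had 125, 122 and 76 counts in the high-NFMP steers and 188, 175 and 136 counts in the low-NFMP steers. As levels these were 7.54, 8.07 and 4.54 CPM against 10.7, 9.64 and 8.17 CPM. Every low-NFMP steer lay above every high-NFMP steer, but the gap between steers 10-16 and 10-8 was small. The means were 6.72 ± 1.91 and 9.51 ± 1.27 CPM (SD, n = 3 each), and the log2 fold change was -0.50 (SE 0.27, 95% interval -1.08 to 0.08), with an adjusted p of 0.508 by edgeR. Its sign was negative with each steer left out in turn, from -0.63 to -0.27.

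**Figure D2:**
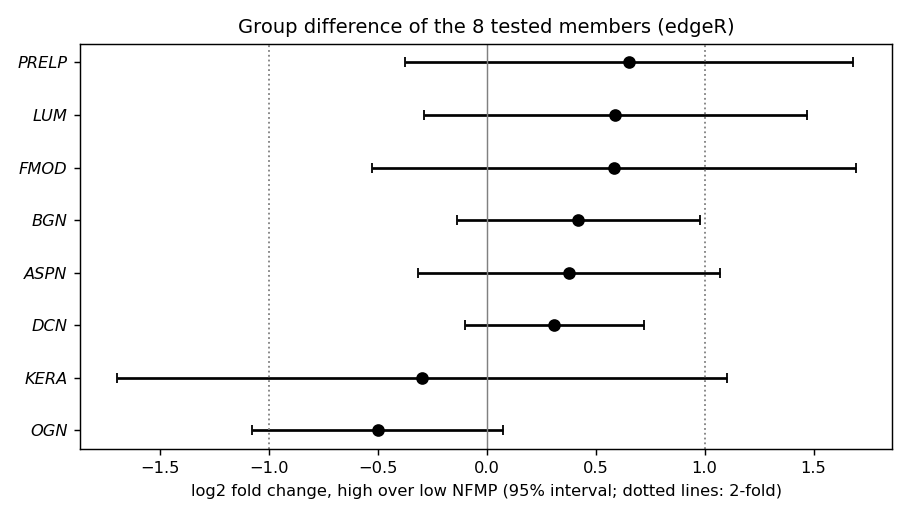
Log2 fold change of the 8 tested genes (points, high over low NFMP) with its 95% interval (bars) from edgeR. Every interval includes 0, and those of DCN and BGN end short of the dotted line that marks a 2-fold difference.

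A 2-fold difference lay outside the 95% intervals of DCN and BGN alone. For ASPN, LUM, FMOD and PRELP the upper bounds were 2.097-fold, 2.77-fold, 3.23-fold and 3.21-fold. The interval of OGN reached down to 0.473-fold, and that of KERA ran from 0.308-fold to 2.15-fold. Differences of 2-fold were therefore not resolved at this number of steers for those 6 genes.

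The summed level of the 9 members was 544.5, 545.9 and 567.8 CPM in the high-NFMP steers and 366.8, 448.4 and 516.1 CPM in the low-NFMP steers. The groups of this sum did not overlap, and their means stood at a ratio of 1.25, which is given as a description. The log2 ratio was 0.32, and it was 0.19 without steer 3-1 and 0.47 without steer 10-16. DCN made up most of the sum. Its share was 91.3%, 81.5% and 91.3% in the high-NFMP steers and 88.2%, 88.4% and 89.0% in the low-NFMP steers. For steer 10-8 the 95% Wilson interval of the share was 80.7% to 82.3%, and in steer 3-1 it was 87.3% to 88.9%. Without DCN the sum was 47.2, 100.9 and 49.7 CPM against 43.5, 52.1 and 56.8 CPM, and the groups overlapped, with steer 10-8 far above the others.

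**Figure D3:**
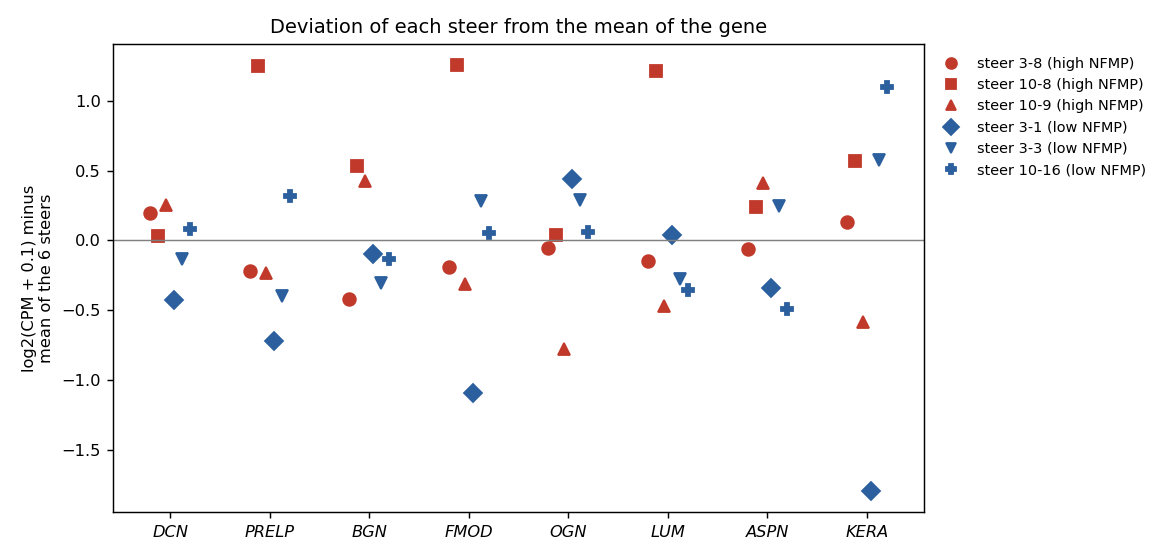
Deviation of each steer from the mean of 6 steers, on the scale of log2(CPM + 0.1), for the genes on the horizontal axis, with high-NFMP steers in red and low-NFMP steers in blue. Steer 10-8 is uppermost for LUM, BGN, FMOD and PRELP, and steer 3-1 is lowest for DCN, FMOD, PRELP and KERA.

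Steer 10-8 had the highest level of 4 of the 9 members, and it was highest in 16.7% of all tested genes. The members it led were LUM, BGN, FMOD and PRELP. It was also highest for 7 of 12 collagens that the family binds or is found with, and COL1A1, the main chain of type I collagen, was 2.32 times the median of the other 5 steers there. Of 12 fibroblast markers it was highest for 4. The tendon and cartilage markers SCX, THBS4 and CILP stood at 2.75, 2.09 and 1.72 times that median in this steer. DPT, a fibroblast gene, stood at 1.84 times. The tendon genes TNMD and MKX and the fibroblast genes DPP4 and FBN1 were not highest there. These were singled out after their values were seen, and their part in the member levels was not tested. DCN was not highest in that steer, and counts of DCN per count of COL1A1, COL1A2 and COL3A1 were 2.2, 1.03 and 2.81 in the high-NFMP steers and 1.52, 1.37 and 1.86 in the low-NFMP steers. PRELP per FMOD count stayed at 1.57, 1.6 and 1.69 in the high-NFMP steers, whereas it was 2.09, 0.995 and 1.93 in the low-NFMP steers.

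**Figure D4:**
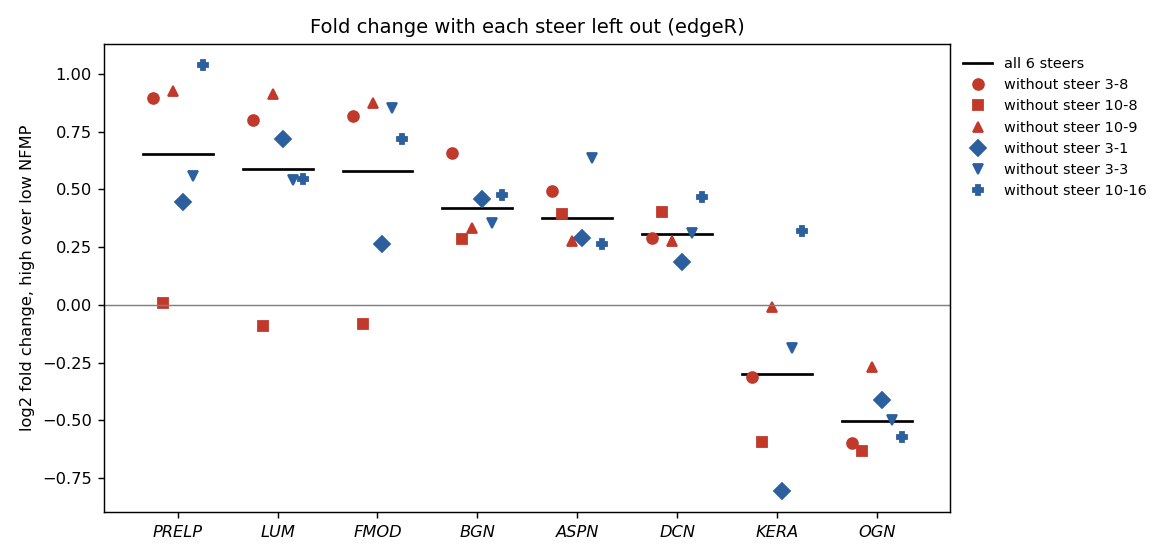
Log2 fold change (high over low NFMP, vertical axis) of each gene from edgeR with all 6 steers and with each steer left out in turn. LUM, FMOD and PRELP drop to about 0 without steer 10-8, at -0.091, -0.082 and 0.008, whereas DCN stays between 0.18 and 0.47.

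Cell type markers were read beside these levels. The 12 fibroblast markers were all detected in every library and summed to 577.3, 641.4 and 604.5 CPM in the high-NFMP steers against 424.9, 533.9 and 519.1 CPM in the low-NFMP steers, without overlap. GSN and S100A4 carried most of that difference, and without them the sum was 336.8, 299.7 and 279.6 CPM against 247.1, 279.8 and 278.4 CPM, with overlap. PDGFRA, a core fibroblast marker, had the opposite sign (log2 fold change -0.51, adjusted p = 0.408 by edgeR) and was lower in every high-NFMP steer. The part of fibroblast content in the summed proteoglycan level was not tested. Within that list CLEC3B, which encodes tetranectin, passed the threshold as higher (log2 fold change 1.01, adjusted p = 0.225 by edgeR) and DPP4, a surface peptidase, as lower (-1.10, adjusted p = 0.42). Both calls were lost under several alternatives. The 10 adipocyte markers summed to between 338.1 and 819.8 CPM in high and between 331.9 and 414.9 CPM in low NFMP, with the highest value in steer 3-8. Of the 10, 9 had a positive log2 fold change, with a median of 0.54, and ADIPOQ, CIDEC, CIDEA and PLIN4 had an unadjusted p below 0.05 as higher by edgeR, against 5.73% of all tested genes in that direction. Without steer 3-8 the adipocyte median was -0.081, with 4 of 10 positive and 1 higher at that p. With age as a term it was 0.094, with 6 of 10 positive and 0 at that p. The 8 tendon and cartilage markers summed to between 108.3 and 185.8 CPM in high and between 86.6 and 130.2 CPM in low NFMP. Of these 8, 4 were at 0 in at least 1 library, among them the cartilage genes ACAN and COL2A1. The sums of endothelial and macrophage markers overlapped between the groups, and so did that of mural cell markers without DES, which muscle fibres also express. Median log2 fold changes were 0.50 for macrophage, 0.37 for tendon and cartilage, 0.30 for fibroblast, 0.26 for endothelial and 0.17 for mural cell markers. Over the 14 alternatives these medians ran from 0.19 to 0.75 for macrophage, 0.18 to 0.60 for tendon and cartilage, 0.22 to 0.41 for fibroblast, -0.15 (without steer 3-8) to 0.39 for endothelial and 0.09 to 0.36 for mural cell markers. Among macrophage markers C1QA and CSF1R were higher in every high-NFMP steer (adjusted p = 0.377 and 0.448 by edgeR), against groups that did not overlap for 17.1% of all tested genes, while CD163 and CD68 had log2 fold changes of -0.56 and -0.10. The macrophage marker AIF1 passed the threshold as higher (1.04, adjusted p = 0.388 by edgeR), a call also lost under several alternatives. Its log2 fold change was 0.475 without steer 3-8 and 0.459 with age as a term.

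The collagen partners of the family did not pass the threshold in any of 12 cases. Of these, 10 had a positive log2 fold change, against 51.9% of all tested genes, and the median was 0.20. With age as a term 6 of 12 were positive and the median was 0.028, and it was 0.10 without steer 3-1 and 0.35 without steer 10-9. COL1A1 had a log2 fold change of 0.23 and COL3A1, which forms the thin fibrils of loose connective tissue, one of 0.16. Of 9 further leucine-rich repeat proteins of the matrix, 4 were tested and 0 passed, with 1 passing without steer 3-3. The most counted were ECM2 and PODN. ECM2, a neighbour of ASPN on the chromosome, had a log2 fold change of 0.46 (adjusted p = 0.573 by edgeR), and PODN (podocan) one of -0.02. CHADL had 14, 19 and 8 counts in high against 5, 13 and 4 in low NFMP, where the counting error is large. Its log2 fold change was 1.03 (95% interval -0.33 to 2.38, adjusted p = 0.57 by edgeR). TSKU had a log2 fold change of -0.27 (adjusted p = 0.767 by edgeR). The groups of TSKU did not overlap, against 17.1% of all tested genes.

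Enzymes that build the sugar chains gave no call past the threshold. For chondroitin and dermatan chains 22 of 23 genes were tested. Their median log2 fold change was -0.03, and 3 of 22 had an unadjusted p below 0.05, all lower in high NFMP, against 5.74% of all tested genes in that direction. They are named here after their values were seen. CSGALNACT2, which adds the first N-acetylgalactosamine of the chain, measured 22.7, 17.4 and 22.8 CPM in high against 45.9, 30.4 and 26.7 CPM in low NFMP (log2 fold change -0.71, adjusted p = 0.228 by edgeR). It was -0.45 without steer 3-1, the oldest, and -0.44 with age as a term, and neither value had an unadjusted p below 0.05. CHSY1, which extends the chain, measured 5.19, 2.65 and 5.08 CPM against 7.46, 8.37 and 7.99 CPM (-0.88, adjusted p = 0.251), and it passed the threshold without steer 3-8 and without steer 10-9. For both the groups did not overlap. UST, a uronic acid sulfotransferase, had a log2 fold change of -0.47 (adjusted p = 0.372) and its groups did not overlap either. Of the 22, 3 were lower without overlap and 1, CHPF2, was higher without overlap. Over all tested genes 17.1% had groups that did not overlap in either direction. With each steer left out, between 1 and 3 of the 22 were lower at an unadjusted p below 0.05. The number was 1 without steer 10-8 and 1 without steer 3-1. The most counted enzymes of the list included CHSY3 (log2 fold change 0.23). Of the keratan chain enzymes 5 of 7 were tested and 0 passed, with 1 passing without steer 3-8 and 1 with age as a term. The most counted were CHST1 and B3GNT2. CHST1, which sulfates keratan, had a log2 fold change of -0.24 and B3GNT2 one of 0.15, while CHST2 had the lowest value of the list at -0.84 (adjusted p = 0.491 by edgeR).

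Of 12 proteases and helpers that process these proteins or their collagen partners, 8 were tested and 0 passed the threshold. ADAMTS1, a protease that cleaves large proteoglycans, had a log2 fold change of 0.41 (adjusted p = 0.454 by edgeR). PCOLCE, which enhances procollagen processing by BMP1, measured 13.0, 24.5 and 12.4 CPM in high against 11.3, 10.7 and 10.2 CPM in low NFMP (0.63, adjusted p = 0.388), without overlap and again with steer 10-8 highest. Without that steer its log2 fold change was 0.27.

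Growth factors that the family binds or modulates were tested in 12 of 14 cases, and 0 passed the threshold, with 1 passing without steer 3-3 and 1, TGFB1, with age as a term. Their median log2 fold change was 0.26, and it was 0.13 without steer 10-8, 0.13 without steer 3-3 and 0.08 with the leading label number in the model. In all, 4 of 12 had an unadjusted p below 0.05 and were higher in high NFMP, against 5.73% of all tested genes in that direction. These were TGFB1, TGFB2, PDGFA and IGF1, named after their values were seen. With each steer left out, between 2 and 4 of the 12 were higher at that p, with 2 without steer 3-1 and 2 without steer 10-16. TGFB1 measured 7.96, 9.06 and 10.2 CPM in high against 5.64, 3.97 and 5.17 CPM in low NFMP (log2 fold change 0.88, adjusted p = 0.18 by edgeR). TGFB2, the most counted ligand of the list, measured 72.1, 77.9 and 62.2 CPM against 43.1, 41.2 and 53.1 CPM (0.63, adjusted p = 0.184). PDGFA, the next most counted, had a log2 fold change of 0.42. Neither TGFB1 nor TGFB2 overlapped between the groups, and neither had an adjusted p below 0.05. Of 16 receptors all were tested and 0 passed, with 1 passing without steer 3-8. Of the 16, 3 had an unadjusted p below 0.05 as higher, against 5.73% of all tested genes, and 1 as lower, against 5.74%. MET, IGF1R and CD44 were higher. BMPR1A, a receptor for bone morphogenetic proteins, was lower, at -0.83 (adjusted p = 0.0806 by edgeR). These receptors are named after their values were seen. The adjusted p of BMPR1A was 0.0146 with DESeq2 and 0.0196 with no filter on low counts, and between 0.0781 and 0.347 under the other alternatives. Over the 14 alternatives between 1 and 4 receptors were higher at an unadjusted p below 0.05, with 1 without steer 3-3, with library totals alone and with age as a term, and between 1 and 4 were lower, with 4 without steer 3-8. ERBB4 and EGFR, the most counted receptors, had log2 fold changes of 0.23 and -0.35.

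Genes known to be induced by TGF-beta were tested in 10 of 10 cases, and 1 passed the threshold, with up to 3 passing under an alternative (without steer 10-16). TGFBI, a secreted matrix protein that binds collagen, measured 7.72, 8.73 and 7.82 CPM in high against 3.19, 3.20 and 3.43 CPM in low NFMP. Its log2 fold change was 1.31 (SE 0.26, adjusted p = 0.0389 by edgeR). The study itself singled out this gene from these libraries, so it is not independent evidence for the list. It passed the threshold of unadjusted p and fold change under every alternative, but its adjusted p was 0.0647 with library totals alone, 0.0543 with limma, 0.07 with the leading label number and 0.269 with age in the model, and between 0.0683 and 0.164 with each steer left out. The other members of the list did not move as one, with a median of 0.06 over the 10. FN1 (fibronectin) and CYR61, also called CCN1, had the most counts, with log2 fold changes of 0.45 and -0.87 (adjusted p = 0.484 and 0.378 by edgeR). The groups of CYR61 did not overlap.

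**Figure D5:**
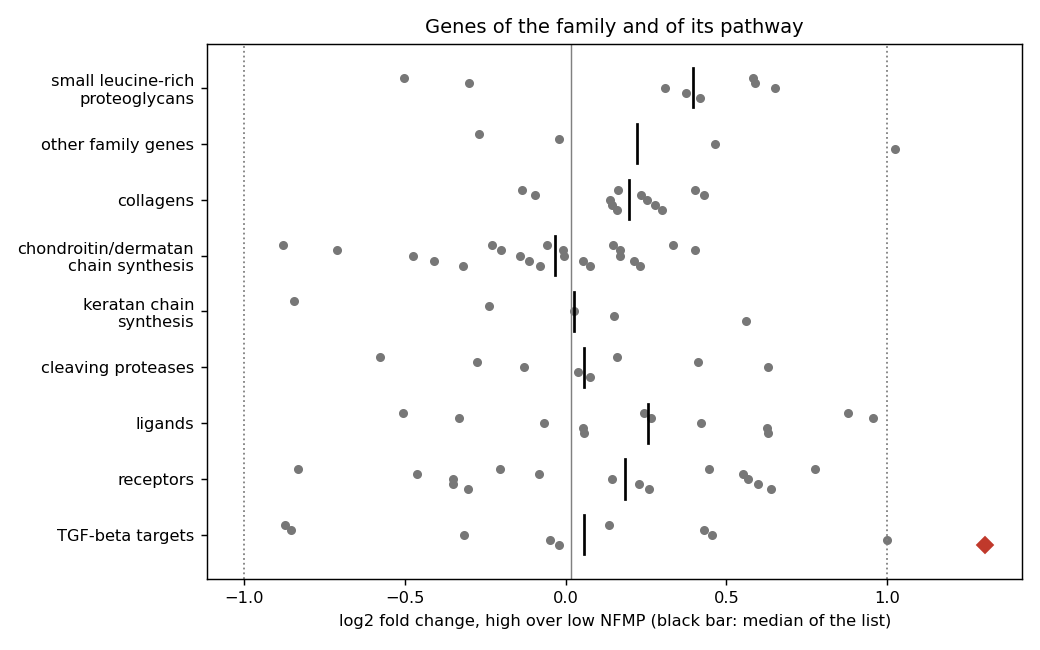
Log2 fold change (high over low NFMP, horizontal axis) of each tested gene, one row for the family and one for each list of its pathway, with a black bar at the median of the list. The family's median is 0.40, medians of the other lists drawn here run from -0.03 to 0.26, and without steer 10-8 the family's median is -0.037.

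Several members lie side by side in the genome. In the RefSeq gene table EPYC, KERA, LUM and DCN follow one another on chromosome 5, and FMOD, PRELP and OPTC on chromosome 16. OGN, OMD, ASPN and ECM2 follow one another on chromosome 8 and each overlaps CENPP, a centromere gene. The use of strand in counting is not known from the sources used here, so reads of overlapping genes may not be fully separable. CENPP had 676, 550 and 454 counts in high against 629, 656 and 504 in low NFMP, with a log2 fold change of 0.03 (adjusted p = 0.971 by edgeR). Among the genes that overlap CENPP, the log2 fold changes of OGN and ASPN, -0.50 and 0.38, had opposite signs. BGN lies apart on chromosome X.

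By the pattern over the 6 steers, genes most like DCN among 6962 with a mean of at least 10 CPM included PAOX, DHRS1, MGP and MAFK. Their Pearson r with DCN lay between 0.979 and 0.99 on the log2 scale, given as a description over 6 steers, where each point of both genes comes from the same library. These genes were picked for the highest r of 6962, and such a choice over 6 steers gives high values by itself. MGP, matrix Gla protein, is an abundant matrix gene and measured 163, 133.6 and 149.6 CPM in high against 75.3, 105.3 and 139.8 CPM in low NFMP.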

How the data were processed

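LT muscle of 6 steers was analysed, 3 per NFMP group, assigned from the sample labels. The authors deposited raw read counts per gene symbol from 3′ mRNA libraries. The methods describe both Tophat2 with HTSeq on UMD3.1 and Bowtie2 with unique and multiple alignments, and the sources used here do not say which made these counts or whether strand was used. The test was run with edgeR 4.0.16 under R 4.3.3. Its default filter (minimum count 10, minimum total 15) kept 15039 of 23015 rows, TMM factors lay between 0.915 and 1.083, and the quasi-likelihood test compared high with low NFMP. The threshold was a fold change above 2 together with an unadjusted p below 0.05, and Benjamini-Hochberg adjustment ran over all tested rows. P-values measure the spread between these steers. Without molecular identifiers, Wilson intervals and the bound for a count of 0 cover counting error only, whereas intervals of fold changes include the spread between steers.

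The members and lists were chosen with earlier results of these data known. Named genes were all members, list genes past the threshold, the 2 most counted genes of each pathway list, and the 5 genes most like DCN, of which 1 is not reported here. Others, such as CHADL, TSKU, CHST2, CD163 and CD68, were named after their values were seen. CCN1 and CCN2 were matched through the older symbols CYR61 and CTGF, while CCN4, CHST5 and MMP13 were not matched. Gene order was read from RefSeq for ARS-UCD2.0. Protein features were not analysed here. Alternatives were RLE size factors, library totals alone, at least 10 counts in every library, no filter, limma 3.58.1 after quantile normalization, DESeq2 1.42.0, a term for age or for the leading number of the label, and omission of each steer in turn. Marker sums without GSN and S100A4 or without DES were added after the data were seen. The procedures were tested on simulated data.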

Additional observations from a re-analysis of the deposited data

How the results depend on the processing

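None of the tested members passed the threshold under any of the 8 alternatives that kept all 6 steers. With each steer left out in turn, between 0 and 1 passed, the 1 being PRELP without steer 10-16. The signs of DCN, BGN, ASPN, PRELP and OGN held throughout. LUM ran from -0.091 to 0.91 and FMOD from -0.082 to 0.87 on the log2 scale, both negative without steer 10-8, and KERA ran from -0.80 to 0.32, positive without steer 10-16. With age as a term KERA was -1.183, and with limma -0.02. The median of the 8 ran from -0.037 without steer 10-8 to 0.577 without steer 3-8, and the log2 ratio of the summed level from 0.194 without steer 3-1 to 0.471 without steer 10-16. An unadjusted p below 0.05 arose for BGN without steer 3-8, LUM without steer 10-9 and PRELP without steer 10-16. KERA gave no value under a minimum of 10 counts in every library, since it fell below it. Over all genes 586 passed the threshold, 969 without a filter and 364 with at least 10 counts in every library, where the number of rows tested also changed. With 3 steers per group, and counts under 40 for KERA and OMD, small differences could not be resolved.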
